A study of Mus musculus with 6 samples.

Results

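The genes described here are 47 antiviral effectors and nucleic acid sensors that interferons induce, chosen by symbol from the 26187 genes of the expression tables. They are the IFIT family, ISG15 and the enzymes that attach or remove it, the OAS family, the RIG-I-like and other sensors of RNA or Z-form nucleic acid, the PARP and DTX3L proteins, the Mx proteins and other direct effectors, and a set of further interferon-induced proteins. All 47 genes were found in the tables. MC3T3-E1 cells, a mouse pre-osteoblast line derived from calvaria, were cultured in osteogenic (OC) medium with β-glycerophosphate and ascorbic acid. The PAKG group received PAKG–8diol–PEG(S) MPs, small microparticles of a polyester made from α-ketoglutarate, 1,8-octanediol and polyethylene glycol, at 30 μg/mL for 2 days. The OC group was kept in the same medium without MPs, so that both groups received the osteogenic supplements. Poly(A) RNA of 3 samples per group was sequenced. Neither group contained particles of another polymer, so that an effect of this polymer and an effect of taking up particles cannot be told apart.

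Cells that sense viral RNA or DNA release type I interferons, which act through a cell surface receptor and, in the nucleus, through a promoter motif called the interferon-stimulated response element (ISRE). The genes under this control hold viral RNA translation, replication and release in check, and several of them encode the sensors themselves, so that the system feeds back on its own detection step. Many are also kept at a low basal level in cells with no infection, and osteoblasts are among the cells in which interferon signalling has been described.

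Values are FPKM, fragment counts scaled to transcript length and to sequencing depth, which the authors deposited with 2 decimals. The FPKM of a library summed to between 289675.9 and 325818.2, and 1 fragment on a transcript of 1 kb was worth an estimated 0.0233 to 0.0305 FPKM, so values near that level rest on few fragments. The spacing of low values behind this estimate was weak, so that it is approximate. The 12 osteoblast lineage markers summed to 5907 to 6947 FPKM in OC and 8631 to 9252 in PAKG libraries, mostly Col1a1, Col1a2 and Sparc. Of the 10 tested, 8 were higher at limma's adjusted p under 0.05 and 1, Spp1, was lower (log2 fold change -0.50, adjusted p = 0.0186). Over all genes tested, 5.97% were higher and 8.73% lower. Dmp1 and Phex were too low to test, and endothelial markers summed to at most 0.03 FPKM. Of 20 leukocyte markers 13 were in the tables and 3 were high enough to test. The sum of the 13 was 13.4 to 17.59 FPKM in OC and 20.87 to 23.27 FPKM in PAKG libraries, most of it Lyz2, lysozyme. Lyz2 was higher in PAKG (log2 fold change 0.64, limma's adjusted p = 0.012). Cd68 and Cd14, the others tested, were not called (log2 fold change -0.10 and 0.06, adjusted p = 0.841 and 0.844). The rest averaged under 0.5 FPKM, and their PAKG means lay both above and below those of OC. Fcer1g, an adaptor of Fc receptors, lay at 0 to 0.16 FPKM in OC against 0.55 to 1.35 FPKM in PAKG. Csf1r lay at 0.06 to 0.12 FPKM in OC against 0.22 to 0.29 FPKM in PAKG. Laptm5, Cx3cr1 and Nkg7 also had higher PAKG means, whereas those of Ptprc, Mpeg1, Mrc1, Coro1a and Cd52 were lower. Ptprc, the defining CD45 antigen, was listed at 0 in 5 libraries and at 0.01 in the other. The part of these markers in the values below was not tested.

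Of the 47 genes, 34 averaged 0.5 FPKM or more over the 6 libraries and were tested, and 13 lay under that level. A fold change here is a difference of group means of log2(FPKM + 0.1), and it was called when limma's adjusted p was under 0.05. With PAKG MPs 9 genes were lower at an adjusted p under 0.05 and at least 2-fold, and none was higher. These were Ifit1, Ifit3, Ifit3b, Isg15, Usp18, Herc6, Ifih1, Dhx58 and Rtp4, whose mean FPKM in the PAKG group stood at 9.21% to 43.9% of that in OC. Over all 12590 genes tested, 0.58% were lower and 0.866% higher by the same rule. Of the 9 genes, Ifit1, Ifit3b, Usp18 and Ifih1 had PAKG means of 0.237, 0.293, 0.163 and 0.4 FPKM. These genes reached the level of 0.5 FPKM through their OC values, as did Ifi44 (PAKG mean 0.423), which was not called. At the adjusted p alone 20 of the 34 (58.8%) were lower and 0 higher by limma, against 8.73% lower and 5.97% higher of all genes tested. At an unadjusted p under 0.05 the counts were 29 lower and 0 higher, against 16.8% and 12.0% of all genes tested. In 27 of the 34 all 3 PAKG libraries lay below all 3 OC libraries, which held for 19.6% of all genes tested. The median log2 fold change was -0.73 over these genes and -0.03 over all genes tested. Of the 34 fold changes 33 were negative, and that of Tlr3 was 0.01. In bulk RNA, a drop in every cell and a drop in the share of cells that express a gene cannot be told apart.

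**Figure D1:**
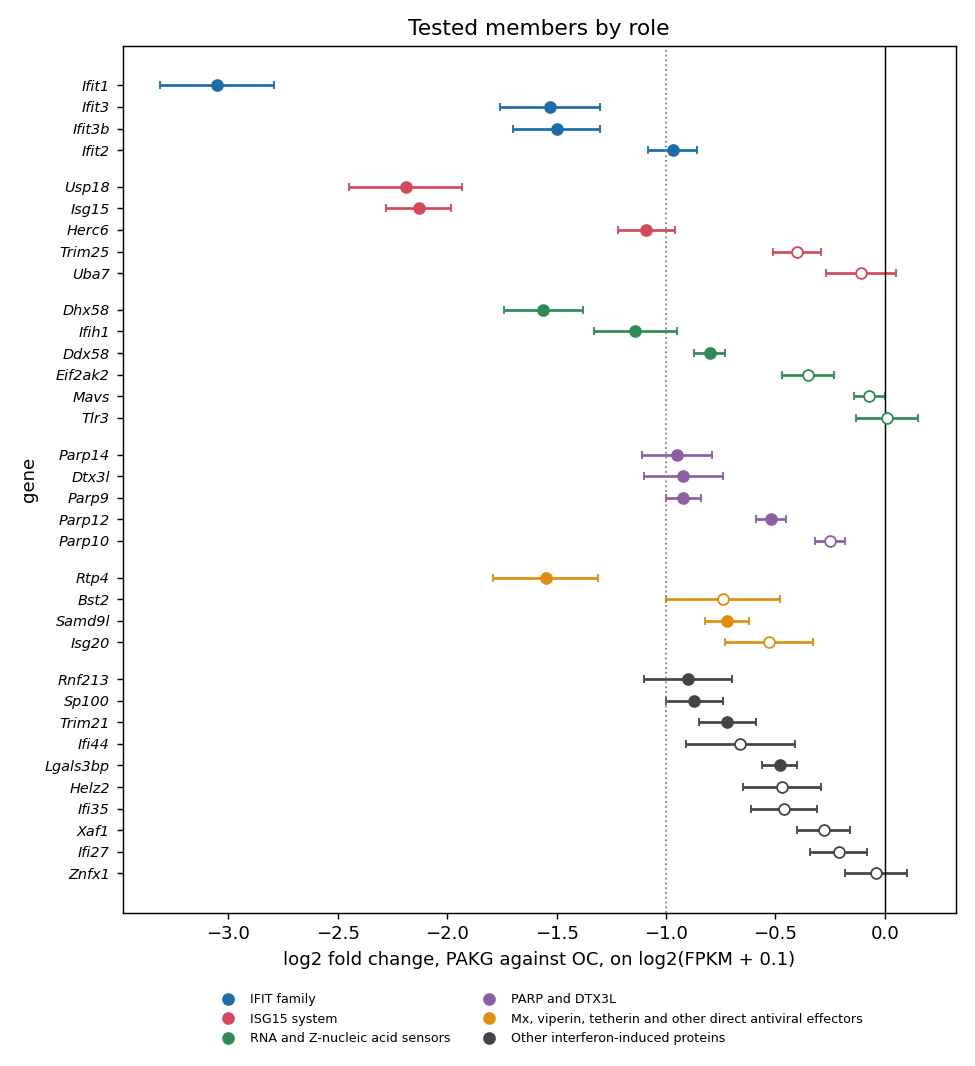
The log2 fold change of PAKG against OC on the log2(FPKM + 0.1) scale (x axis) is plotted for the 34 tested genes, ordered and coloured by role. Bars are standard errors, filled points have an adjusted p under 0.05 and the dotted line marks a 2-fold fall; 9 filled points lie to its left and 1 of the 34 points, Tlr3, lies above 0.

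The difference between groups was seen in each library rather than in 1 sample. Against the OC mean of each gene, the median of the 34 genes was -0.73, -0.72 and -0.82 in PAKG replicates 1, 2 and 3 on the log2 scale, and -0.01, -0.02 and 0.02 in the OC replicates. The OC medians lie near 0 by construction, since these libraries make up the OC mean. In PAKG replicates 1 and 3 all 34 genes lay below their OC mean, and in PAKG replicate 2 32 of them did. Over all genes tested the same medians were within -0.05 to 0.01. Summed over the 47 genes, FPKM was 244.73, 233.51 and 253.65 in OC and 163.61, 156.62 and 164.59 in PAKG, and the groups did not overlap. On the log2(FPKM + 0.1) scale the median change differed with the level in OC, which itself enters the fold change. The ranges overlapped, from -2.19 to 0.01 under 2 FPKM and from -2.13 to -0.07 at 10 FPKM or more. The median log2 fold change was -0.95 in the 11 genes with an OC mean under 2 FPKM, -0.82 in 14 genes at 2 to 10 FPKM and -0.48 in 9 genes at 10 FPKM or more. How far these medians lay apart, and the order of the lower levels, depended on the pseudocount. With a pseudocount of 1 the medians were -0.52, -0.58 and -0.45.

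The IFIT proteins bind foreign RNA, and Ifit1 is known to hold back the translation of RNA whose cap lacks a methyl group. All 4 members were lower at an adjusted p under 0.05, and 3 of them at least 2-fold. Over all genes tested these shares were 8.73% and 0.58%. Ifit1 (ENSMUSG00000034459, chromosome 19, 34640871 to 34650009, GRCm38) had 2.74, 2.43 and 2.54 FPKM in OC and 0.38, 0.16 and 0.17 FPKM in PAKG. The PAKG libraries were far below the OC libraries, replicate 1 less so than the others, and the mean went from 2.57 ± 0.157 to 0.237 ± 0.124 (SD, n = 3). This was the furthest fall of the 34 genes (log2 fold change -3.05, standard error, SE, 0.26, adjusted p = 0.000543). Because the PAKG values lie near the pseudocount, it depended on that choice, from -3.50 to -1.53 over the alternatives.

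Ifit3 (ENSMUSG00000074896, chromosome 19, 34583531 to 34588731) and Ifit3b (ENSMUSG00000062488, chromosome 19, 34607970 to 34613401) are neighbouring copies, and 51.2% and 45.0% of the 50-base windows of their longest transcripts also occur in another gene. Ifit3 had 3.58, 3.24 and 4.19 FPKM in OC and 1.47, 0.79 and 1.48 FPKM in PAKG (log2 fold change -1.53, SE 0.23, adjusted p = 0.00536). Ifit3b had 0.89, 0.96 and 1.20 FPKM in OC and 0.32, 0.28 and 0.28 FPKM in PAKG (log2 fold change -1.5, SE 0.20, adjusted p = 0.00319). The division of reads between the copies is uncertain, and since FPKM is scaled to transcript length their sum removes this only in part. That sum was 4.47, 4.2 and 5.39 FPKM in OC and 1.79, 1.07 and 1.76 FPKM in PAKG, and its PAKG mean was 32.9% of the OC mean. Ifit2, whose product forms complexes with the other IFIT proteins, had 5.19, 6.50 and 5.87 FPKM in OC and 2.64, 3.14 and 3.05 FPKM in PAKG, again with no overlap. It fell by less than the others (log2 fold change -0.97, SE 0.11, adjusted p = 0.00171). The 4 genes lie on the same strand of chromosome 19, with 7111 bases between Ifit2 and Ifit3.

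Isg15, a ubiquitin-like protein that is joined to viral and cellular proteins, was the most abundant transcript of its system in OC. In PAKG the mean of Trim25, 5.0 FPKM, was above that of Isg15, 3.93 FPKM. Isg15 (ENSMUSG00000035692, chromosome 4, 156199424 to 156200818) had 17.94, 14.34 and 20.76 FPKM in OC and 4.22, 3.43 and 4.14 FPKM in PAKG. The groups did not overlap, and its mean fell from 17.7 ± 3.22 to 3.93 ± 0.435 (SD, n = 3; log2 fold change -2.13, SE 0.15, adjusted p = 0.000286). Usp18 (ENSMUSG00000030107, chromosome 6, 121245906 to 121270917), the protease that removes ISG15 and also restrains the interferon receptor, had 1.28, 0.83 and 1.22 FPKM in OC and 0.18, 0.19 and 0.12 FPKM in PAKG. It fell along with the modifier it removes (log2 fold change -2.19, SE 0.26, adjusted p = 0.00174). Herc6 (ENSMUSG00000029798, chromosome 6, 57581000 to 57664632), the main ISG15 ligase of mouse cells, had 1.63, 1.83 and 1.76 FPKM in OC and 0.72, 0.80 and 0.77 FPKM in PAKG (log2 fold change -1.09, SE 0.13, adjusted p = 0.00174). The spread within each group was small, but 23.8% of its 50-base windows also occur in another annotated gene, so its level is uncertain. Uba7, the enzyme that activates ISG15 in the first step of its transfer, had 1.51, 1.28 and 1.06 FPKM in OC and 1.17, 1.12 and 1.23 FPKM in PAKG. Here the groups overlapped, and the log2 fold change was -0.11 with a 95% interval of -0.47 to 0.26. Trim25, a ubiquitin ligase that activates RIG-I, had a fold change of -0.40 on the log2 scale (adjusted p = 0.0532) with no overlap between groups. With the replicate number as a block, its adjusted p was 0.00649, and over all alternatives it ranged from 0.00649 to 0.185.

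**Figure D2:**
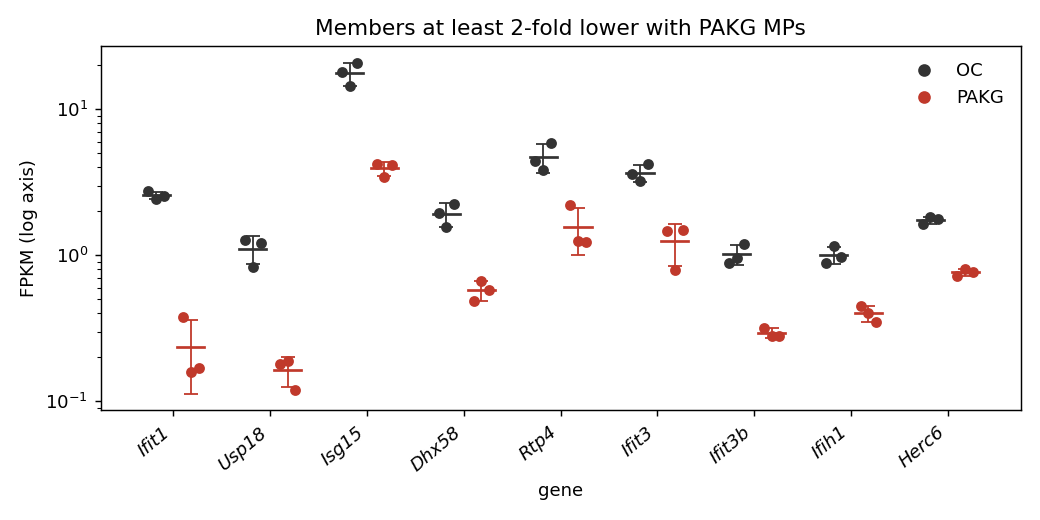
FPKM per library (log axis) is plotted for the 9 genes that were at least 2-fold lower, in order of their fold change, with OC in black and PAKG in red. Lines and bars show the mean ± SD of 3 libraries; no PAKG point of a gene reaches an OC point of that gene.

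Among the 9 genes that were at least 2-fold lower, ISRE-type motifs were found in Ifit1, Ifit3, Ifit3b, Isg15 and Ifih1 but not in Herc6, and Usp18, Dhx58 and Rtp4 had no promoter window. In windows from 250 bases before to 50 bases after the transcription start (RefSeq, GRCm38.p6), the sequence GAAANNGAAA was searched on both strands (TTTCNNTTTC when it lies on the other strand). Windows matched 36 of the 47 genes, and 14 of these 36 (38.9%) held the motif, against 3.99% of the 27025 genes with a window. Ifi27, Rtp4, Oas2, Mx1, Parp14, Mx2, Parp10, Dhx58, Usp18, Zbp1 and Parp9 had no matched entry. The shorter GAS-type motif TTCNNNGAA, searched as a contrast, was in 6 of the 36 (16.7%) and in 9.55% of all genes. The stretches of the 4 genes that were at least 2-fold lower and had matches before the start are shown 5′ to 3′ on the strand of the gene, with 30 bases on each side where the window holds them and the motif in capitals.
Isg15: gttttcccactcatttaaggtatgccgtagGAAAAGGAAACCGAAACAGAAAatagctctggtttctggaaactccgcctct
Ifit1: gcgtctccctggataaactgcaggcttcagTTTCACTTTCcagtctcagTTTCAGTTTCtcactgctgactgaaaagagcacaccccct
Ifit3: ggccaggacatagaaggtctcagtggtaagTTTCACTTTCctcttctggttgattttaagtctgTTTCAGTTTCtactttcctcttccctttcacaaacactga
Ifit3b: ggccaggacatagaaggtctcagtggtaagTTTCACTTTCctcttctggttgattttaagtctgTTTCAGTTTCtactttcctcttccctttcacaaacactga
The Isg15 stretch is chr4:156200845-156200926 on the minus strand, and its capitals are 3 matches that start 78, 72 and 66 bases before the transcription start, each overlapping the next. The Ifit1 stretch is chr19:34640755-34640843 on the plus strand, with matches from 104 and 85 bases before the start. The Ifit3 stretch is chr19:34583343-34583446 and that of Ifit3b chr19:34607739-34607842, both on the plus strand, and they are identical over all 104 bases, so their matches are not separate instances. In Ifit3 the matches start 156 and 122 bases before the start, and in Ifit3b 188 and 154.

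Matches before the start were also present in Cxcl10, Oas1a, Oas3, Ddx60, Bst2 and Rsad2, and matches after it in Ifih1, Ddx58, Trim21 and Eif2ak2. Of the tested genes with a matched window, the 9 with the motif had a median log2 fold change of -1.14, and 7 of them were lower, 5 at least 2-fold. With the copies Ifit3 and Ifit3b counted once, as Ifit3, the median was -0.97 over 8 genes, of which 6 were lower, 4 at least 2-fold. The 18 without it had a median of -0.50, and 8 of them were lower, 1 at least 2-fold. This is a description of these genes, and a motif match in a window is not evidence that a factor was bound there. Both Tlr3 and Mavs, which differed least among the sensors, were without a match, but so was Herc6, which was lower. Of the genes with a match, the sensor Eif2ak2 and the effector Bst2 were not called. The RefSeq start used for Tlr3 lies inside the gene as annotated in GENCODE, so the GENCODE start was not searched.

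**Figure D3:**
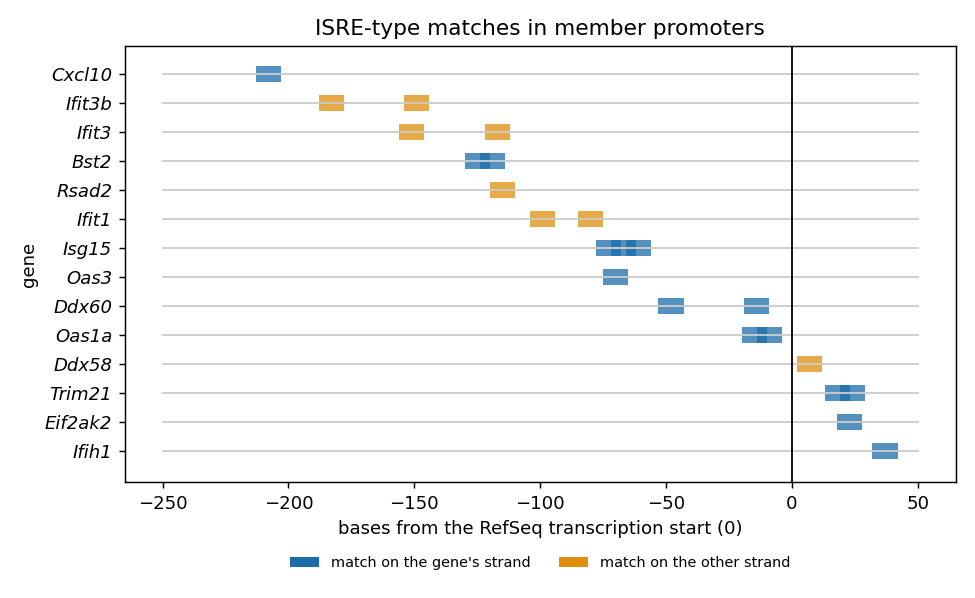
The position of each GAAANNGAAA match is plotted in bases from the RefSeq transcription start (0) for the 14 genes that held one. Blue boxes are matches on the strand of the gene and orange boxes on the other strand; those of 10 genes lie before the start and those of Ifih1, Ddx58, Trim21 and Eif2ak2 after it.

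Among the sensors, the 3 RIG-I-like helicases fell, whereas their adaptor Mavs and the endosomal receptor Tlr3 were not called. Dhx58 (ENSMUSG00000017830, chromosome 11, 100694884 to 100704271) encodes LGP2, which tunes the other RIG-I-like helicases. Its values were 1.96, 1.55 and 2.24 FPKM in OC and 0.49, 0.67 and 0.58 FPKM in PAKG (log2 fold change -1.56, SE 0.18, adjusted p = 0.00176). Ifih1 (ENSMUSG00000026896, chromosome 2, 62595798 to 62646255) encodes MDA5, a sensor of long double-stranded RNA. Its values were 0.89, 1.15 and 0.98 FPKM in OC and 0.45, 0.40 and 0.35 FPKM in PAKG (log2 fold change -1.14, SE 0.19, adjusted p = 0.00785). Ddx58 (ENSMUSG00000040296, chromosome 4, 40203773 to 40239828) encodes RIG-I, a sensor of RNA with a 5′ triphosphate. It was about an order of magnitude more abundant than Ifih1 in FPKM, with 10.21, 9.96 and 9.88 in OC and 5.65, 6.07 and 5.48 in PAKG (log2 fold change -0.80, SE 0.07, adjusted p = 0.000686). In all 3 helicases no PAKG library reached the OC range. Dhx58 overlaps an annotated antisense gene, and whether the counting used strand is not given in the sources used here.

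Mavs, the mitochondrial protein through which these helicases signal, had 13.16, 12.57 and 11.61 FPKM in OC and 11.76, 11.93 and 11.82 FPKM in PAKG. The log2 fold change was -0.07, with a 95% interval of -0.24 to 0.10, and the groups overlapped. Tlr3, which detects double-stranded RNA inside endosomes, had 1.09, 1.27 and 1.07 FPKM in OC and 1.12, 1.28 and 1.06 FPKM in PAKG (log2 fold change 0.01, interval -0.32 to 0.34). Its sign changed when single replicates were left out. Eif2ak2, the kinase PKR that stops translation when it binds double-stranded RNA, gave a log2 fold change of -0.35 (adjusted p = 0.0863). The groups did not overlap, and with the replicate block the adjusted p was 0.0129 (range over the alternatives 0.0129 to 0.245).

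The OAS enzymes make short oligoadenylates that switch on RNase L, and the OASL proteins are their relatives. All 5 genes had a mean under 0.5 FPKM over the 6 libraries, and their sum was 1.64, 1.09 and 1.44 FPKM in OC and 0.14, 0.19 and 0.09 FPKM in PAKG. The sums did not overlap. Oasl2 accounted for most of it, with 0.87, 0.68 and 0.94 FPKM in OC and 0.11, 0.12 and 0.08 FPKM in PAKG. Oas1a had 0.37, 0.18 and 0.35 FPKM in OC and was listed at 0, 0.02 and 0 in PAKG, but 57.6% of its 50-base windows occur in other genes, mainly Oas1g and Oas1b. Oas2 had 0.11, 0.12 and 0.14 FPKM in OC and 0, 0.03 and 0.01 FPKM in PAKG. Oasl1 overlapped between groups, with 0.28, 0.10 and 0.01 FPKM in OC and 0.02, 0.02 and 0 in PAKG. Oas3 did not exceed 0.01 FPKM in any library.

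Of the 8 other genes under the same level, 6 had all 3 PAKG libraries below the 3 OC libraries. The share for which this holds over all genes under that level was not determined. Zbp1, the sensor of Z-form nucleic acid, had 0.14, 0.17 and 0.28 FPKM in OC and 0.04, 0 and 0.02 FPKM in PAKG. Mx2, annotated as a polymorphic pseudogene, had 0.09, 0.16 and 0.31 FPKM in OC and 0, 0 and 0.03 FPKM in PAKG. Mx1, a gene for a dynamin-like GTPase that traps viral components, had 0.10, 0.12 and 0.20 FPKM in OC and 0, 0.08 and 0.08 FPKM in PAKG. In each of these the PAKG values correspond to at most a few fragments per kilobase. Rsad2, or viperin, which makes a chain-terminating nucleotide, had 0.04, 0.04 and 0.02 FPKM in OC and was listed at 0 in all 3 PAKG libraries. Cmpk2, a mitochondrial nucleotide kinase next to Rsad2 on chromosome 12, had 0.05, 0.12 and 0.14 FPKM in OC and 0.01, 0.03 and 0.03 FPKM in PAKG. Ddx60, a helicase tied to RIG-I signalling, had 0.13, 0.07 and 0.03 FPKM in OC and 0, 0.01 and 0 in PAKG. The groups overlapped in the remaining genes. Epsti1 was listed above 0 in OC replicate 2 alone (0.07), and Cxcl10, a chemokine that draws T cells, had 0.11, 0.07 and 0.07 FPKM in OC and 0.15, 0.07 and 0.03 FPKM in PAKG. When the filter was removed so that all 47 genes were tested, 4 of these 13 were lower, against 3.03% of the 25742 genes in that fit. These were Oasl2 (log2 fold change -2.19, adjusted p = 0.00432), Oas1a (-1.87, 0.0106), Zbp1 (-1.29, 0.0332) and Oas2 (-0.98, 0.0229).

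**Figure D4:**
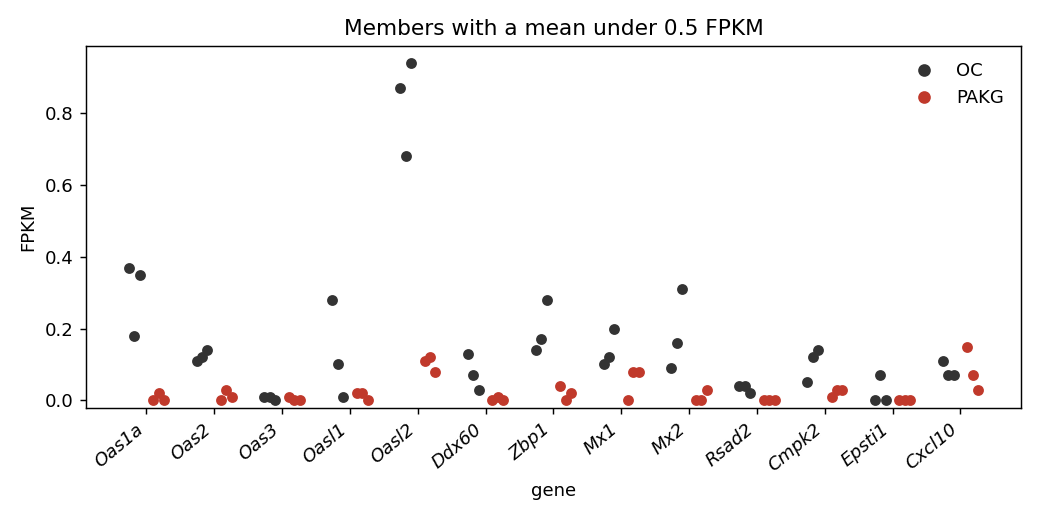
FPKM per library is plotted for the 13 genes with a mean under 0.5 FPKM, with OC in black and PAKG in red. In 9 of the 13 genes every PAKG point lies below every OC point, and Oasl2 reaches the highest OC values, 0.68 to 0.94 FPKM. The share of such genes over all genes under that level was not determined.

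The PARP proteins in the set transfer ADP-ribose to other proteins and DTX3L is a ubiquitin ligase that works in a complex with PARP9. Of these 5 genes 4 were lower, none of them 2-fold, with a group median of -0.92, and the libraries of the groups were apart in all 5. Over all genes tested 8.73% were lower, and in 19.6% all 3 PAKG libraries lay below all 3 OC libraries. Parp9 (ENSMUSG00000022906, chromosome 16, 35938470 to 35972605) had 7.05, 7.54 and 7.77 FPKM in OC and 3.64, 4.10 and 3.96 FPKM in PAKG (log2 fold change -0.92, SE 0.08, adjusted p = 0.000677). Its partner Dtx3l had the same log2 fold change of -0.92 (adjusted p = 0.0139). The genes overlap by 682 bases on opposite strands, so reads in that stretch are uncertain. The Dtx3l call was lost without OC replicate 3 (adjusted p = 0.0631, range over the alternatives 0.00244 to 0.0631). Parp14, a large macrodomain protein, and Parp12, which holds zinc fingers that bind RNA, had log2 fold changes of -0.95 (adjusted p = 0.00766) and -0.52 (adjusted p = 0.00235). Parp10 was not called, with a log2 fold change of -0.25 (adjusted p = 0.0682); with the replicate block its adjusted p was 0.0286 (range 0.0286 to 0.199). It overlaps Plec on the same strand, so its level is uncertain.

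Of the direct effectors that could be tested, Rtp4 and Samd9l fell. Rtp4 (ENSMUSG00000033355, chromosome 16, 23520291 to 23614222), a receptor chaperone that also binds viral RNA, had 4.40, 3.82 and 5.86 FPKM in OC and 2.20, 1.26 and 1.23 FPKM in PAKG (log2 fold change -1.55, SE 0.24, adjusted p = 0.00603). The groups were apart, with PAKG replicate 1 the closest to OC. In addition, 13.6% of its 50-base windows occur in another gene and it overlaps Masp1 on the opposite strand. Samd9l (ENSMUSG00000047735, chromosome 6, 3372257 to 3399572), which restricts translation in virus-infected cells, had 13.81, 16.34 and 15.50 FPKM in OC and 8.96, 10.14 and 8.53 FPKM in PAKG (log2 fold change -0.72, SE 0.10, adjusted p = 0.00309). Bst2, or tetherin, which holds budding virus at the cell surface, had 3.36, 1.94 and 3.39 FPKM in OC and 1.69, 1.24 and 2.11 FPKM in PAKG. Replicate 2 was the lowest of both groups and OC replicate 2 lay within the PAKG range. The log2 fold change of Bst2 was -0.74 (adjusted p = 0.102), and its adjusted p was 0.00533 with the replicate block and 0.0289 without OC replicate 2 (range 0.00533 to 0.281). Isg20, an exonuclease that degrades RNA, gave a log2 fold change of -0.53 (adjusted p = 0.131, and 0.0125 with the block; range 0.0125 to 0.341).

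The 10 further interferon-induced genes that were tested had a median log2 fold change of -0.47, and 4 of them fell. Over all genes tested 8.73% were lower at an adjusted p under 0.05. Sp100 (ENSMUSG00000026222, chromosome 1, 85649988 to 85709998), a protein of nuclear bodies, had 1.90, 1.75 and 1.90 FPKM in OC and 1.09, 0.88 and 0.94 FPKM in PAKG (log2 fold change -0.87, SE 0.13, adjusted p = 0.00489). The groups were apart, and 8.7% of its 50-base windows occur in other genes. Lgals3bp, a secreted glycoprotein, fell by 0.48 on the log2 scale (adjusted p = 0.00773). Trim21, the receptor for antibodies inside the cell, fell by 0.72 (adjusted p = 0.0118), and the call was lost without OC replicate 3 (adjusted p = 0.0577, range 0.00729 to 0.0577). Rnf213, a very large ubiquitin ligase, fell by 0.90 (adjusted p = 0.0219). This call was the least stable of the 20. It was lost without OC replicate 2 (adjusted p = 0.0533), OC replicate 3 (0.0603), PAKG replicate 1 (0.0707) or PAKG replicate 3 (0.0805), and with no filter (0.06), and the range over the alternatives was 0.000937 to 0.0805. In Rnf213 replicate 2 was the highest library of both groups, at 5.67 against 4.07 and 4.16 FPKM in OC and at 3.18 against 2.10 and 2.07 FPKM in PAKG.

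Of the 6 genes not called in this group, Ifi44, Ifi35 and Helz2 showed no overlap between groups. The log2 fold changes of Ifi35 and Helz2 were -0.46 and -0.47. Ifi35 encodes a leucine zipper protein and Helz2 a helicase. Their adjusted p was 0.0806 and 0.14, and with the replicate block 0.00228 (range 0.00228 to 0.24) and 0.0161 (range 0.0161 to 0.348). Ifi27, a mitochondrial protein and the most abundant of the 47 transcripts, had 44.88, 37.20 and 46.84 FPKM in OC and 40.23, 30.98 and 40.41 FPKM in PAKG. Its groups overlapped, and its log2 fold change of -0.21 (adjusted p = 0.343) was called with the block alone (adjusted p = 0.0204, range 0.0204 to 0.63). Ifi44 gave a log2 fold change of -0.66 (adjusted p = 0.132) and Xaf1, a partner of an inhibitor of apoptosis, one of -0.28 (adjusted p = 0.159). Xaf1 was called when replicate 2 was left out of both groups (adjusted p = 0.0458, range 0.0458 to 0.384). Znfx1, a helicase that senses RNA at mitochondria, had a log2 fold change of -0.04 with an interval of -0.37 to 0.30, and its sign changed with the scaling and with the replicates used.

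Replicate 2 stood apart by transcript length in both groups. Against the mean of replicates 1 and 3, 26 of the 34 genes moved the same way in OC and in PAKG, 12 lower and 14 higher in replicate 2. The 5 genes with a longest annotated transcript under 1500 bases had medians of -0.38 in OC and -0.40 in PAKG on the log2 scale, and the 8 genes of 5000 bases or more had 0.29 in both. The correlation of this difference with length over the 34 genes was 0.85 in OC and 0.76 in PAKG (Spearman's rho), and 0.57 and 0.53 over 12582 tested genes; these genes share the same libraries, so it is a description. The part of this shift in the calls was not tested beyond the fits that take account of the number. With the replicate number as a block 28 of the 34 genes were lower, against 17.1% of all genes tested, and the 20 calls stood. Without replicate 2 of either group 27 were lower, against 12.3% of all genes tested. The share over all genes thus also rose in both of these fits. The log2 fold change itself had a median of -0.53 under 1500 bases, -0.80 between 1500 and 5000 bases and -0.81 at 5000 bases or more.

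**Figure D5:**
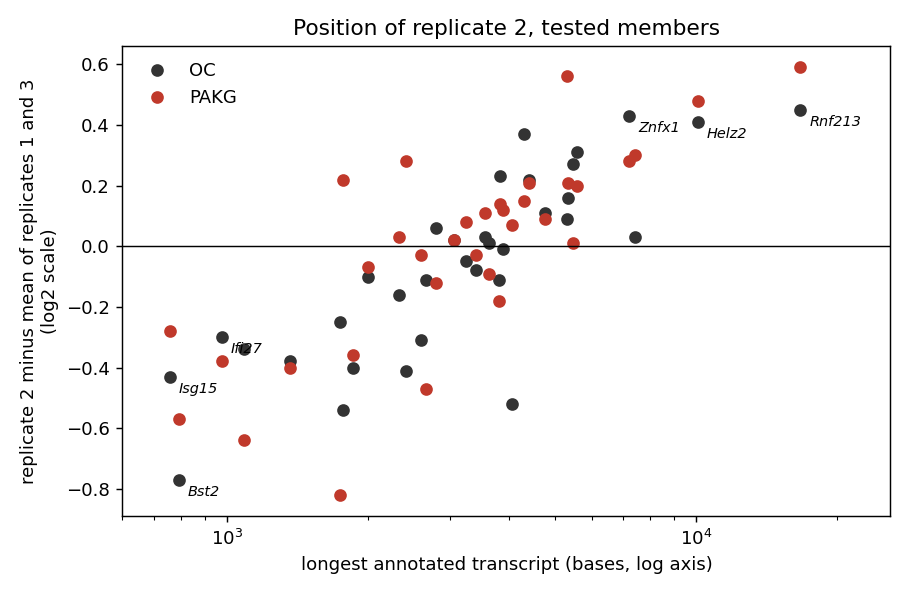
The difference of replicate 2 from the mean of replicates 1 and 3 of the same group (y axis, log2 scale) is plotted against the longest annotated transcript (x axis, bases, log scale) for the 34 tested genes, OC in black and PAKG in red. Short transcripts such as Bst2 (-0.77 in OC) lie below 0 and long ones such as Rnf213 (0.45 in OC) above it, in both groups.

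Further genes of the pathway were taken from lists. Of 71 other interferon-stimulated genes 37 were tested, of which 18 (48.6%) were lower and 1 higher, with a median log2 fold change of -0.35. Over all genes tested 8.73% were lower and 5.97% higher. The count of 18 became 7, 13 and 6 without OC replicate 1, 2 and 3, and 8, 16 and 7 without PAKG replicate 1, 2 and 3. With no filter it was 9. The share over all genes with a replicate left out was not determined, so a general loss of calls with fewer libraries cannot be told apart. Of the 37 genes 3 were at least 2-fold lower, against 0.58% of all genes tested. These were Plscr2, a phospholipid scramblase family member (log2 fold change -1.35, adjusted p = 0.00145), Slfn8, a Schlafen protein (-1.74, 0.00865) and Apol9b, an apolipoprotein L (-1.69, 0.0169). Slfn8 and Apol9b had PAKG means of 0.21 and 0.413 FPKM, so they reached the level of 0.5 FPKM through their OC values. The gene that was higher, named here after its value was seen, was Cnp, a cyclic nucleotide phosphodiesterase (log2 fold change 0.74, adjusted p = 0.000844).

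Of 30 adaptors and kinases of nucleic acid sensing 21 were tested, with a median log2 fold change of -0.07. Sting1, the adaptor that responds to the cyclic dinucleotide made by the DNA sensor cGAS, had 2.93, 2.30 and 2.88 FPKM in OC and 0.71, 0.94 and 1.08 FPKM in PAKG. Sting1 was the only one of the 21 that was lower at limma's adjusted p (log2 fold change -1.48, SE 0.17, adjusted p = 0.00176). This was 4.76% of the 21, under the 8.73% of all genes tested. The block called 3 lower, and 17.1% of all genes tested. Zc3h12a, an RNase that degrades inflammatory transcripts, was higher (0.57, adjusted p = 0.00883) and is likewise named after its value was seen. Over all genes tested 5.97% were higher. The block called 3 of these genes higher, and the fit with no mean-variance trend called 2. The shares higher over all genes in those fits were not determined. The interferon genes themselves were at the edge of detection. Of 21 genes encoding interferons 5 were in the tables, and their summed FPKM was 0.10, 0.15 and 0 in OC and 0.07, 0.01 and 0.08 in PAKG. The sums overlapped, and Ifnb1, interferon β, was listed at 0.08 FPKM in OC replicate 1 and at 0 in the other libraries.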

How the data were processed

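The 6 libraries were assigned to groups from the sample labels. Per the study's methods and the submitters' notes (cutadapt, FastQC, HISAT2, StringTie and DESeq2 on GRCm38; versions and annotation release not given in the sources used here), poly(A) libraries were prepared with a stranded kit, and FPKM, the unit of the tables the authors deposited for each library, do not allow a count model. Depth was estimated from the spacing of low values of single-transcript genes of 200 to 1000 bases, with a search limited to 0.02 to 0.04 FPKM per fragment on 1 kb because an unlimited search found a submultiple in PAKG replicate 2.

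The 12590 genes averaging 0.5 FPKM or more were compared on log2(FPKM + 0.1) with limma 3.58.1 in R 4.3.3 (lmFit, eBayes with trend, 2-sided, Benjamini-Hochberg over all genes tested; prior degrees of freedom 3.54, residual 4), with the study's thresholds of adjusted p under 0.05 and a 2-fold change, and also at the adjusted p alone. The fit was tested on simulated data. Cell experiments of the study were run in triplicate, but whether the sequenced samples are wells of a single experiment or separate experiments is not stated, so the p-values refer to the variation among these 6 samples, which may be technical. The sources differ on the concentrations of the medium's supplements, which are therefore not given.

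Values in each library are given for genes past both thresholds and for the gene with the smallest adjusted p in each role group, and were added for further genes where a result turns on them. The members, lists and thresholds were chosen with earlier results of these data known. Coordinates and transcript lengths are from GENCODE M21, promoters from RefSeq (GRCm38.p6). A window of 50 bases counts as shared if it occurs in a transcript of another gene.

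Both groups carry replicate numbers 1 to 3. Deviations from the group means correlated at 0.240, 0.430 and 0.192 between samples with the same number and at -0.312 to 0.138 between others. What a number stands for is in neither the labels nor the paper. It was fitted as a replicate block.

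Alternatives were pseudocounts of 1 and 0.01, no filter, a filter at 1 FPKM, rescaling to a common total, median-ratio scaling, the block, a fit with no mean-variance trend, and each replicate left out. Figures were drawn with matplotlib 3.10.9.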

Additional observations from a re-analysis of the deposited data

How the results depend on the processing

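In the 15 alternatives none of the 34 tested genes was called higher, and the count lower at the adjusted p ranged from 17 (without OC replicate 3) to 28 (with the replicate block). The 9 genes lower at least 2-fold became 4 with a pseudocount of 1, since Dhx58, Herc6, Ifih1, Ifit3b and Usp18 then stayed under 2-fold with an adjusted p still under 0.05, and the median log2 fold change became -0.52. With each replicate left out in turn the count at both thresholds was 9 to 13 and held all 9 genes each time. The replicate block changed none of the 20 calls and added 8, each given beside its gene, and left 9 genes at both thresholds. With no filter 12 genes were at least 2-fold lower, with 1 FPKM as the minimum 6 of 30 tested, where Ifih1, Ifit3b and Usp18 were not tested. Signs changed in 3 genes that were never called. Over the replicates left out, Tlr3 ranged from -0.06 to 0.08, Uba7 from -0.23 to 0.01 and Znfx1 from -0.13 to 0.11, and Znfx1 was 0.01 after rescaling to a common total. The cause was not tested.

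Values near 0.03 FPKM rest on about 1 fragment per kilobase, so that a listed 0 and a low level cannot be separated at this depth. Of the 13 genes under the filter 10 were listed at 0 in at least 1 PAKG library. Oasl2 was not among them, with 0.11, 0.12 and 0.08 FPKM in PAKG. With 3 libraries a group, the falls of Ifi35 (SE 0.15) and Helz2 (SE 0.18) were called or not depending on the treatment of replicate 2. Falls of a similar size with a smaller spread were called in all 15 alternatives. These were Lgals3bp (log2 fold change -0.48, SE 0.08) and Parp12 (-0.52, SE 0.07).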
